A study of Mus musculus with 18 samples.

Results

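The AP-1, EGR and BATF factors followed here are 10 transcription factor genes, *Fos*, *Fosb*, *Fosl2*, *Jun*, *Junb*, *Egr1*, *Egr2*, *Atf3*, *Batf* and *Batf2*. They were taken by gene symbol from the 20615 genes of the deposited table, and all 10 passed the filter on low counts, as did 15789 genes in all. RNA was sequenced from bone marrow-derived macrophages (BMDMs) of female C57BL/6 (B6) mice and of female C57BL/6.NOD-*Aec1Aec2* mice, called SjSS, aged 7 to 12 weeks. The SjSS strain is a model of Sjögren's syndrome that carries the NOD intervals *Idd3* (*Aec1*) and *Idd5* (*Aec2*) on the B6 background, so that both intervals differ between the strains together and neither can be told apart from the other. BMDMs of each strain were left untreated (control), given apoptotic cells (ACs) or given CpG, with 3 samples in each of the 6 groups. The ACs were thymocytes killed with dexamethasone, given at 5 per BMDM for 2 h and washed off, and RNA was taken 3 h later by the labels and somewhat later by the study's methods. CpG, an oligonucleotide that stimulates TLR9, was used at 1 µM for 6 h. Cells of 3 mice were cultured per strain. Whether samples that bear the same number share a mouse, and which strain's thymocytes a culture received, is not given in the sources used here. All BMDMs, controls included, were grown with L929 cell supernatant as the source of M-CSF, and its share was reduced before treatment. Whether it was present during treatment and after the wash is not given in the sources used here.

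AP-1 is a family of paired bZIP proteins. A Fos protein needs a Jun protein as its partner, whereas Jun proteins can also pair among themselves or with ATF and BATF proteins. Most *Fos*, *Jun* and *Egr* genes are immediate early genes, transcribed within minutes of a signal through MAP kinases and SRF and soon silenced, so that samples taken hours later show what is left of that wave or what has been kept on. BATF proteins lack an activation domain of their own and join Jun proteins and interferon regulatory factors (IRFs) on composite DNA sites. In macrophages these factors lie downstream of Toll-like receptors, interferons and growth factors.

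Total counts were 30688336 to 57139662 per sample, and the mean correlation of a sample with the others of its group was 0.987 to 0.992. The 10 macrophage markers, among them *Csf1r* and *Adgre1*, were all expressed, with a summed level of 16224 to 24766 CPM, counts scaled to a common library size. Among markers of the thymocytes used as ACs, *Cd3d*, *Cd3e*, *Cd3g* and *Trac* had group means of at most 0.127 CPM. The summed level of all 18 thymocyte and T cell markers, of which 6 passed the filter, was 16.5 to 21.4 CPM in AC treated SjSS and 12.5 to 15.2 CPM in control SjSS BMDMs. In B6 it was 6.53 to 7.68 CPM with ACs and 11.3 to 12.5 CPM in controls. *Cd4* held most of that sum, with 14.0 CPM in AC treated SjSS BMDMs. Of the 6 tested markers, 2 were higher and 2 lower with ACs in B6 at an adjusted p under 0.05 (edgeR, 38.3% of all genes). In SjSS 3 were higher and 1 lower (58.0%). Their median log2 fold change was 0.87 and 0.97, beside 0.00 and -0.02 over all genes. In B6, 7, 8 and 5 of the 18 markers were at 0 in controls and 1 in each AC treated sample. In SjSS, 2, 9 and 6 were at 0 in controls and 3, 3 and 4 with ACs. Whether thymocyte RNA was carried over was not tested. The 6 fibroblast markers summed to 38.6 to 133 CPM in B6 and 148 to 233 CPM in SjSS samples and thus moved with the strain, and the 5 neutrophil markers in the table were highest in CpG treated B6 BMDMs (11.2 to 13.1 CPM, against 2.47 to 6.01 CPM in the other groups). B cell markers summed to 9.41 to 26.8 CPM and dendritic cell markers to 0.801 to 3.57 CPM. The part of these cells in the results below was not tested, and in bulk RNA a change in the number of expressing cells cannot be told apart from a change in RNA per cell.

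Differences below are log2 fold changes ± SE from edgeR's quasi-likelihood test, with p-values adjusted by the Benjamini-Hochberg method over the 15789 genes. A gene rose or fell where the adjusted p was under 0.05. It was called where the log2 fold change was also over 1.3 in size, which is the threshold in the study's methods. The legend of the study's volcano plots gives 1.3 as a fold change instead. Levels are CPM scaled by TMM, given as mean ± SD of 3 samples. Strain differences are SjSS minus B6.

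**Figure D1:**
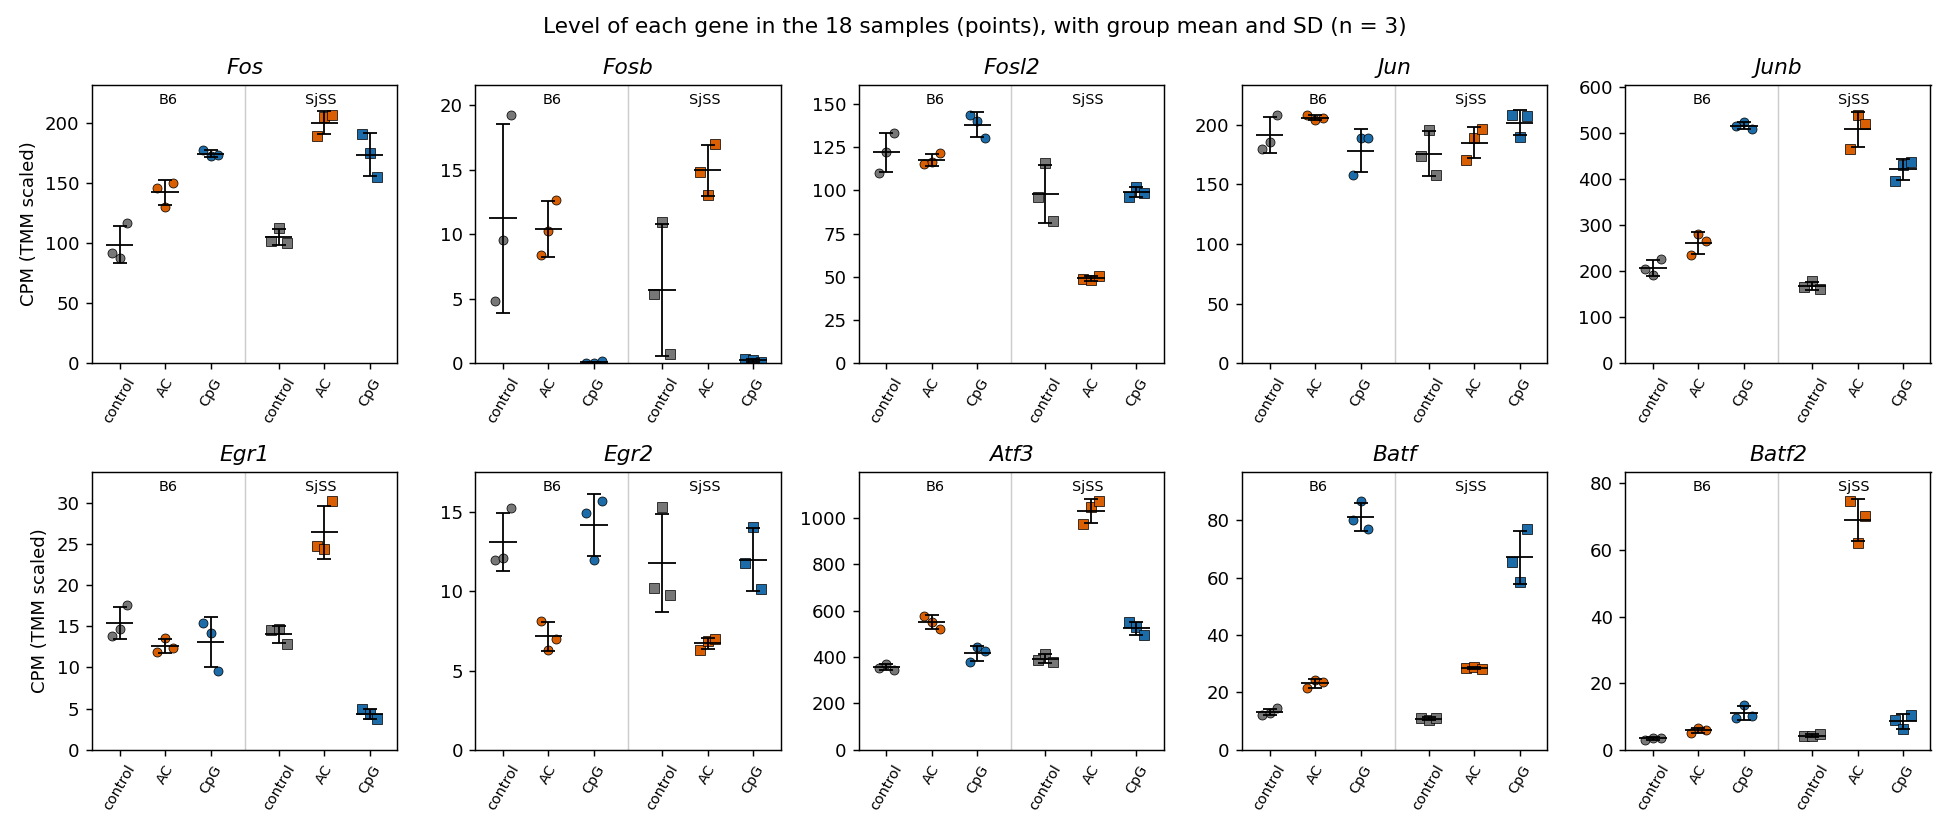
Level of each of the 10 genes in CPM (linear axis from 0, TMM scaled) in the 18 samples, by strain and treatment. Points are samples (circles B6, squares SjSS), long bars the group mean and whiskers the SD of 3 samples. *Batf2* stood at 62.1 to 74.5 CPM in AC treated SjSS BMDMs and at most 13.4 CPM elsewhere, and *Fosb* was at most 0.315 CPM in every CpG treated sample.

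To set the genes beside each other, CPM was divided by exon length in kb. In control B6 BMDMs *Atf3* led with 165 ± 5.71 CPM per kb (SD, n = 3), followed by *Junb* (90.0 ± 7.64), *Jun* (60.03 ± 4.74) and *Fos* (42.0 ± 6.58 CPM per kb). *Fosl2* (12.6 ± 1.19) and *Batf* (9.36 ± 0.827 CPM per kb) came next, and each of these 6 lay apart from its neighbours in every sample. The lowest levels per kb were those of *Egr2* (3.86 ± 0.543), *Egr1* (3.43 ± 0.433), *Fosb* (1.80 ± 1.18) and *Batf2* (1.35 ± 0.133 CPM per kb), among which *Egr2* overlapped *Egr1* and *Fosb* overlapped *Batf2*. Control SjSS BMDMs had the same order for the upper 6. With ACs, *Batf2* stood at rank 5 of the 10 in SjSS (27.3 ± 2.50 CPM per kb) and at rank 8 in B6 BMDMs (2.31 ± 0.323 CPM per kb).

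The first comparison asked how each strain responded to ACs. In B6 BMDMs, *Atf3*, *Batf*, *Batf2*, *Fos* and *Junb* rose by 0.33 to 0.81 on the log2 scale and *Egr2* fell. Thus 6 of the 10 genes passed the adjusted p, against 38.3% of all genes, and 0 were called, against 4.47% (edgeR; 6 had an unadjusted p under 0.05, and DESeq2 also called 0). In SjSS BMDMs, 7 rose (*Batf2*, *Junb*, *Fosb*, *Atf3*, *Batf*, *Fos* and *Egr1*) and 2 fell (*Fosl2* and *Egr2*), against 58.0% of all genes in either direction. Of these, *Batf2*, *Junb*, *Fosb*, *Atf3* and *Batf* were called, all higher, 5 of 10 against 12.9% of all genes. These calls depended on the scaling. *Atf3* and *Batf* fell short of 1.3 with upper quartile scaling (1.27 and 1.26), and with library totals alone *Junb* (1.18), *Atf3* (0.98) and *Batf* (0.96) did, all still past the adjusted p, while *Fosb* lost it (1.05, adjusted p = 0.094). The median log2 fold change of the 10 genes was 0.22 in B6 and 1.16 in SjSS, beside 0.00 and -0.02 over all genes.

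CpG served the study as another inflammatory stimulus. It raised *Batf*, *Batf2*, *Junb*, *Fos* and *Atf3* in B6 BMDMs and those 5 and *Jun* in SjSS BMDMs. *Fosb* fell in both strains, and *Egr1* fell in SjSS. In B6, 6 of 10 passed the adjusted p (57.9% of all genes), and 4 were called (12.7%), *Batf*, *Batf2* and *Junb* higher and *Fosb* lower. In SjSS, 8 of 10 passed (54.2%), and 4 were called (9.26%), *Batf* and *Junb* higher and *Fosb* and *Egr1* lower. The median log2 fold change of the 10 genes was 0.20 in B6 and 0.31 in SjSS, beside -0.04 and -0.01 over all genes. The share that passed with CpG lay near that of all genes in B6. Within a strain, the AC and CpG responses share their control samples.

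**Figure D2:**
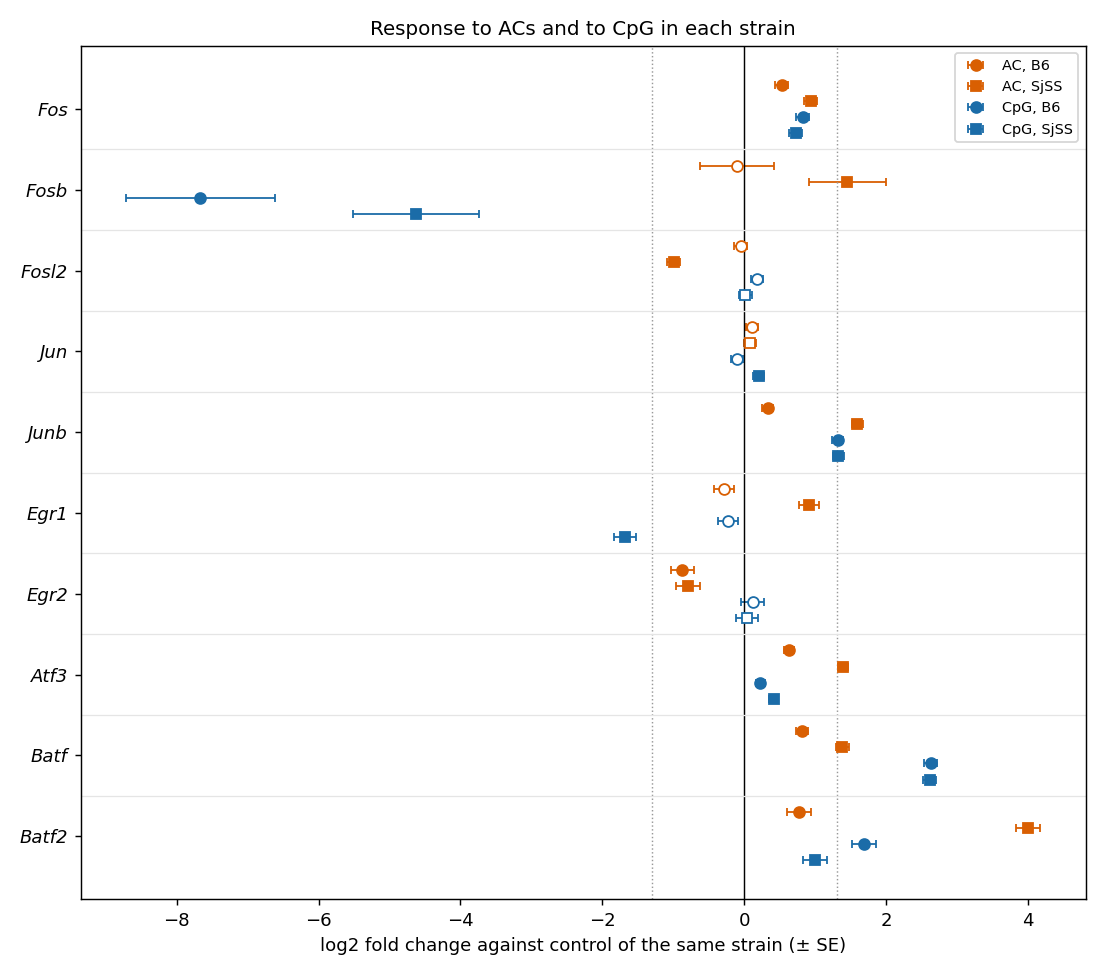
Log2 fold change (± SE) of each gene against control BMDMs of its own strain, for ACs (orange) and CpG (blue) in B6 (circles) and SjSS (squares). Filled symbols have an adjusted p under 0.05 and dotted lines mark 1.3 in either direction. *Fosb* lies at -7.67 in B6 and -4.63 in SjSS with CpG, and *Batf2* at 3.997 in SjSS with ACs.

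*Batf2*, the partner of IRF1 in activated macrophages, had the largest AC response of the 10 genes in SjSS. It stood at 3.04, 3.69 and 3.52 CPM in control B6 and at 4.16, 4.02 and 4.70 CPM in control SjSS BMDMs. With ACs it reached 4.96, 6.58 and 5.91 CPM in B6 and 74.5, 62.1 and 70.1 CPM in SjSS BMDMs. Every AC treated sample lay above every control of its strain, and the SjSS samples lay far above all others. *Batf2* rose 1.71-fold in B6 (0.77 ± 0.17, adjusted p = 0.0015) and 16.0-fold in SjSS (3.997 ± 0.17, adjusted p = 1.9e-13). The difference between these responses was 3.22 ± 0.24 (adjusted p = 4.5e-09), and over 21 alternative settings it stayed between 2.88 and 3.32. CpG took *Batf2* to 9.41, 13.4 and 10.2 CPM in B6 and to 8.95, 6.23 and 10.6 CPM in SjSS, so that the strains overlapped. Those CpG responses were 1.69 ± 0.17 in B6 and 0.99 ± 0.17 in SjSS, and their difference of -0.69 ± 0.24 did not pass (adjusted p = 0.097), although it passed with DESeq2 (adjusted p = 0.029), with a replicate block within each strain (-0.68, adjusted p = 0.011) and without SjSS CpG 3 (-0.87, adjusted p = 0.029). On chromosome 19 (mm10, 6140983 to 6172477, plus strand) *Batf2* overlaps the protein-coding *Arl2* on the other strand and the pseudogene *Gm5510*. Whether counting used the strand is not given in the sources used here, so reads of these genes could be shared.

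*Batf*, which pairs with JUN proteins and with IRF4 or IRF8, responded most to CpG. Its levels were 12.2, 12.9 and 14.4 CPM in control B6 and 11.2, 10.4 and 11.2 CPM in control SjSS BMDMs. After CpG they were 80.2, 86.5 and 76.9 CPM in B6 and 65.4, 58.6 and 77.1 CPM in SjSS. No CpG treated sample came near a control. The rise was 6.17-fold in B6 (2.63 ± 0.09, adjusted p = 1.9e-14) and 6.12-fold in SjSS (2.61 ± 0.09, adjusted p = 3.6e-14), with a difference of -0.01 ± 0.12 (adjusted p = 0.98). ACs gave 21.5, 24.3 and 23.6 CPM in B6 and 28.5, 29.0 and 28.0 CPM in SjSS, between the control and CpG levels in each strain. The AC responses were 0.81 ± 0.09 and 1.38 ± 0.09, and the SjSS response was larger by 0.57 ± 0.13 (adjusted p = 0.0016). With library totals as the only scaling that difference fell to 0.22 (adjusted p = 0.14).

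*Junb*, a Jun protein that often opposes JUN at shared targets, was raised by ACs mainly in SjSS and by CpG in both strains. Control levels were 204, 191 and 226 CPM in B6 and 166, 178 and 161 CPM in SjSS BMDMs. AC treated BMDMs had 235, 281 and 265 CPM in B6 and 465, 539 and 518 CPM in SjSS. None of these groups overlapped, and the AC treated SjSS samples were the highest. *Junb* rose 1.26-fold in B6 (0.33 ± 0.07, adjusted p = 0.0016) and 3.02-fold in SjSS (1.60 ± 0.08, adjusted p = 1.2e-12). The SjSS response was larger by 1.27 ± 0.11 (adjusted p = 2e-08), just under the threshold of 1.3. CpG gave 515, 524 and 508 CPM in B6 and 395, 430.5 and 436 CPM in SjSS, all above the controls. The CpG responses, 1.32 ± 0.08 in both strains, differed by 0.01 ± 0.11 (adjusted p = 0.98). They were past 1.3 by a narrow margin. Leaving out B6 control 2 gave 1.26 in B6, and leaving out SjSS control 3 or SjSS CpG 3 gave 1.291 or 1.297 in SjSS, each below the threshold. Both calls were also lost with upper quartile scaling (1.22 in B6 and 1.25 in SjSS) and with library totals alone (1.13 and 1.20). With no filter on low counts the B6 response was 1.297. All these values were still past the adjusted p. The 3′ end of *Junb* on chromosome 8 (mm10, 84974484 to 84978719, minus strand) overlaps *Prdx2* on the other strand.

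*Jun*, the founding member of the family, changed little. Its group means ran from 176 CPM in control SjSS to 206 CPM in AC treated B6 BMDMs, and each group overlapped its neighbour in that order. No AC response passed (0.11 ± 0.08 in B6, adjusted p = 0.34, and 0.08 ± 0.08 in SjSS, adjusted p = 0.46), nor did CpG in B6 (-0.10 ± 0.08, adjusted p = 0.31). With CpG in B6, *Jun* did pass with upper quartile scaling (-0.20, adjusted p = 0.045) and with library totals alone (-0.28, adjusted p = 0.0058). CpG raised it in SjSS by 0.20 ± 0.08 at the edge of the threshold (adjusted p = 0.0495), with overlapping samples, and 9 alternatives moved it to the other side, without SjSS control 1 or 3 or SjSS CpG 1 or 3 among them (0.13 to 0.19). With library totals as the only scaling the AC response in SjSS turned to -0.34 (adjusted p = 0.0012). The gene on chromosome 4 (mm10, 95049034 to 95052223, minus strand) overlaps the antisense gene *Junos*, from which its reads cannot be told apart without the strand.

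The Fos genes moved in different directions. *Fos* itself, on chromosome 12 (mm10, 85473890 to 85477274, plus strand), was at 92.0, 87.7 and 116 CPM in control B6 and at 102, 112 and 100.3 CPM in control SjSS BMDMs. It reached 146, 130.3 and 149.8 CPM with ACs in B6 and 189, 205 and 207 CPM with ACs in SjSS, and the treated samples lay above all controls. ACs raised it by 0.53 ± 0.09 in B6 (adjusted p = 0.00015) and 0.93 ± 0.09 in SjSS (adjusted p = 5e-08). The difference of 0.41 ± 0.13 had an adjusted p of 0.018, which was lost (0.050 to 0.70) with upper quartile scaling, with library totals alone, without B6 control 3 and without B6 AC 2 (0.07 to 0.35). CpG raised *Fos* to 178, 173 and 173 CPM in B6 and 190.5, 175 and 155 CPM in SjSS. These responses of 0.82 ± 0.09 and 0.73 ± 0.09 did not differ past the threshold (-0.09 ± 0.13, adjusted p = 0.75).

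*Fosb*, an immediate early gene close in sequence to *Fos*, was almost absent after CpG. Control BMDMs varied most for this gene. The estimated counts were 301, 459 and 1085 (4.82, 9.57 and 19.3 CPM) in B6 and 292, 371 and 37 (5.38, 10.97 and 0.671 CPM) in SjSS. After CpG they were 0, 1 and 6 in B6 and 14, 10 and 4 in SjSS, of which the highest was 0.315 CPM. Even the lowest control, SjSS control 3, was above every CpG treated sample. The fitted change was -7.67 ± 1.05 in B6 (adjusted p = 3.5e-06) and -4.63 ± 0.89 in SjSS (adjusted p = 0.00019). With so few counts the fitted size is imprecise, from -9.63 to -7.02 in B6 and from -5.19 to -3.78 in SjSS over 15 alternatives each (the -9.63 without B6 CpG 3), and the adjusted p stayed under 0.05 in all of them. The strains' CpG responses could not be separated (3.03 ± 2.08, adjusted p = 0.45).

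ACs left *Fosb* on. The AC treated samples had 8.36, 10.2 and 12.7 CPM in B6 and 14.9, 13.0 and 16.98 CPM in SjSS. In B6 they lay within the range of the controls (-0.11 ± 0.52, adjusted p = 0.90), while in SjSS all 3 lay above the controls (1.45 ± 0.55, adjusted p = 0.029). That SjSS call was lost with DESeq2 (1.42, adjusted p = 0.13), with library totals alone, and without SjSS control 1 or 3 or SjSS AC 1 or 3 (0.89 to 1.46, adjusted p = 0.054 to 0.076). Without SjSS control 3, the lowest, the change was 0.89, and without SjSS control 2, the highest, it was 2.31. The AC responses of the strains did not differ past the threshold (1.56 ± 0.75, adjusted p = 0.11), but passed it without B6 control 1 (1.93, adjusted p = 0.045) and without SjSS control 2 (2.41, adjusted p = 0.015).

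*Fosl2*, which encodes the Fos-related protein FRA2, fell with ACs in SjSS and did not pass the test in B6. It was at 96.1, 116 and 82.1 CPM in control SjSS and at 48.5, 48.1 and 50.6 CPM in AC treated SjSS BMDMs. B6 had 110.1, 122 and 133 CPM in controls and 115, 116 and 122 CPM with ACs, which overlapped. The response was -0.996 ± 0.09 in SjSS (adjusted p = 1.9e-08) and -0.05 ± 0.09 in B6 (adjusted p = 0.69), a difference of -0.94 ± 0.13 (adjusted p = 9.7e-06) that passed in all 21 alternatives. CpG changed it in neither strain past the threshold (0.18 ± 0.09 in B6 and 0.02 ± 0.09 in SjSS, adjusted p = 0.093 and 0.90), except in B6 without B6 control 3 (0.25, adjusted p = 0.039).

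The promoters of *Fos*, *Fosb*, *Junb* and *Batf* are shown because CpG raised 3 of these genes and lowered *Fosb*. Each run is the stretch of up to 250 bases before the RefSeq start of the gene (GRCm38.p6), 5′ to 3′ on the strand of the gene, without bases that lie inside the gene of the deposited table. Capitals mark the CRE core TGACG (either strand) and the TATA box TATAAA.
*Fos*, chr12:85473640-85473889, plus strand: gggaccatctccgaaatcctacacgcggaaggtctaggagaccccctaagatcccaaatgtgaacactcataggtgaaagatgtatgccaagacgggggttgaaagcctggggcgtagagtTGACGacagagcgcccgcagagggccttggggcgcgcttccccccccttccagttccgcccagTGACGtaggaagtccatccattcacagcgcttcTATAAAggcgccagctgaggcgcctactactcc
*Fosb*, chr7:19310052-19310295, minus strand: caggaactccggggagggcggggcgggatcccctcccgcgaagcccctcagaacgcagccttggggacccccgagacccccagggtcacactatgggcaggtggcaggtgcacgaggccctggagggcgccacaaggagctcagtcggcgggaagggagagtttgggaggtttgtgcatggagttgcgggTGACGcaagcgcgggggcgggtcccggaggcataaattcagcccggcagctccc
*Junb*, chr8:84978749-84978998, minus strand: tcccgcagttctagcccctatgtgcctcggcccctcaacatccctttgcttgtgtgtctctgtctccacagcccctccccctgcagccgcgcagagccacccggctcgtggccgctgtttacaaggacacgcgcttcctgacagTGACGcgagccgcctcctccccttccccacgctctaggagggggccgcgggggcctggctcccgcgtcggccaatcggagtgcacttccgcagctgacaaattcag
*Batf*, chr12:85686470-85686668, plus strand: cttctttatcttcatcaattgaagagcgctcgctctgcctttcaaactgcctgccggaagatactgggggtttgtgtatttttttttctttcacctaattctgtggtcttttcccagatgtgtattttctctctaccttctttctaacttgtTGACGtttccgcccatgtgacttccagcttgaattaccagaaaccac
The CRE core, the shorter sequence within the full CRE, lay at 66 to 62 and at 129 to 125 bases before the start in *Fos*, at 60 to 56 in *Fosb*, at 106 to 102 in *Junb* and at 98 to 94 in *Batf*. It was found in 6 of the 8 genes with a RefSeq entry (these 4, *Atf3* and *Egr2*, the last at 3 of its alternative starts) and in 17.8% of all 32851 promoters. *Batf2* and *Egr1* had no entry. The full CRE TGACGTCA, the AP-1 site TGANTCA and the interferon-gamma site TTCNNNGAA were in none of the 8, and in 1.55%, 6.75% and 7.02% of all promoters. The interferon response core GAAANNGAA was in *Fosl2* and *Egr2* (7.13% of all), the EGR site GCGNGGGCG in *Fosb* and *Fosl2* (4.70%), the TATA box in *Fos* (12.4%), the kappaB site in *Fos*, *Fosb* and *Fosl2* (3.90%) and the CArG box, the site of SRF, in *Egr2* (1.47%). Both strands were searched, and only in the 250 bases before a start, so that sites farther upstream would be missed. A member counted where any of its starts held the motif, whereas the share of all counted each promoter entry. Apart from kappaB matches that overlapped each other in *Fosl2*, the matches in these genes lay apart. *Fosb* and *Fos* both held the CRE core and the kappaB site. The part of any of these matches in the responses was not tested.

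*Atf3*, a stress-induced bZIP factor known to restrain inflammatory genes in macrophages, was the most abundant of the 10 genes per kb in 5 of the 6 groups and rose in all 4 responses. Control BMDMs had 353, 369 and 344 CPM in B6 and 388, 413 and 378 CPM in SjSS. ACs brought it to 578, 553 and 521 CPM in B6 and to 972, 1046 and 1069.9 CPM in SjSS, with no overlap between any of these groups. The response was 0.63 ± 0.07 in B6 (adjusted p = 3.6e-07) and 1.39 ± 0.07 in SjSS (adjusted p = 1.2e-12), and SjSS exceeded B6 by 0.76 ± 0.09 (adjusted p = 2.7e-06; 0.42 to 0.80 over 21 alternatives). CpG raised it less, to 380, 444 and 424 CPM in B6 (0.23 ± 0.07, adjusted p = 0.0058) and 549, 528 and 493 CPM in SjSS (0.41 ± 0.07, adjusted p = 2.4e-05). The B6 rise was lost with upper quartile scaling (0.13) and with library totals alone (0.05). *Atf3* lies on chromosome 1 (mm10, 191170296 to 191218040, minus strand), where it overlaps the small RNA gene *Gm24748* on the other strand.

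The EGR genes encode zinc finger factors, and *Egr1*, like *Fosb*, rose with ACs and fell with CpG in SjSS. Its control levels were 13.9, 14.7 and 17.6 CPM in B6 and 14.5, 14.6 and 12.9 CPM in SjSS. ACs gave 24.7, 24.3 and 30.2 CPM in SjSS, above all other samples, and CpG gave 5.02, 4.30 and 3.79 CPM, below all others. B6 had 11.9, 13.5 and 12.4 CPM with ACs and 15.5, 14.2 and 9.63 CPM with CpG. The AC treated B6 samples all lay below the B6 controls, while those with CpG overlapped them. *Egr1* rose by 0.91 ± 0.14 with ACs (adjusted p = 1.7e-05) and fell by 1.68 on the log2 scale with CpG (SE 0.16, adjusted p = 3e-08) in SjSS. The changes in B6 were -0.29 ± 0.14 (adjusted p = 0.13) and -0.23 ± 0.14 (adjusted p = 0.18). The AC change passed when the compared groups alone were fitted (-0.30, adjusted p = 0.042) and with library totals alone (-0.36, adjusted p = 0.047), and the CpG change with library totals alone (-0.41, adjusted p = 0.014) and without B6 CpG 1 (-0.37, adjusted p = 0.046). The responses differed between strains by 1.20 ± 0.20 for ACs (adjusted p = 0.0001) and by -1.45 ± 0.21 for CpG (adjusted p = 0.00046), and both differences passed in all 21 alternatives (0.86 to 1.27 and -1.65 to -1.31). *Egr1* was called in the interaction with CpG, 1 of 10 genes against 0.614% of all genes.

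*Egr2* followed another course. It was at 12.0, 12.1 and 15.2 CPM in control B6 and 10.2, 15.3 and 9.77 CPM in control SjSS BMDMs. With ACs it was at 8.12, 6.32 and 7.02 CPM in B6 and 6.33, 6.90 and 6.98 CPM in SjSS. All AC treated samples lay below all controls. The fall was similar in size, -0.87 ± 0.16 in B6 (adjusted p = 0.00029) and -0.79 ± 0.17 in SjSS (adjusted p = 0.00045), with a difference of 0.08 ± 0.23 (adjusted p = 0.82). With CpG it overlapped the controls in both strains (0.12 ± 0.16 and 0.04 ± 0.16, adjusted p = 0.55 and 0.86).

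The strains were next compared within a treatment and in their responses. Without treatment, *Junb* and *Fosl2* were lower in SjSS (-0.30 ± 0.07, adjusted p = 0.0081, and -0.32 ± 0.09, adjusted p = 0.018), 2 of 10 genes against 19.6% of all genes, and 0 of 10 were called against 2.01% (edgeR and DESeq2; 4 had an unadjusted p under 0.05). The *Fosl2* difference did not pass when B6 control 2 or 3 or SjSS control 1 or 3 was left out (-0.31 to -0.20). It also failed when the compared groups alone were fitted (-0.30, adjusted p = 0.10). *Batf* passed with DESeq2 (-0.26, adjusted p = 0.047) and without B6 control 1 (-0.32, adjusted p = 0.042). It passed narrowly with no filter on low counts (-0.28) and with a block by replicate number (-0.26, adjusted p = 0.0498 for both). *Atf3* passed with library totals alone (0.19, adjusted p = 0.048). With ACs, 6 genes were higher in SjSS, *Batf2* (3.56 ± 0.16), *Egr1* (1.07 ± 0.14), *Junb* (0.96 ± 0.07), *Atf3* (0.90 ± 0.07), *Fos* (0.49 ± 0.09) and *Batf* (0.30 ± 0.09), and *Fosl2* was lower (-1.26 ± 0.09). That is 7 of 10 against 49.4% of all genes, and *Batf2* alone was called, against 8.93%. With library totals alone *Fos* and *Batf* did not pass (0.19 and 0.00). *Jun* passed with upper quartile scaling (-0.21, adjusted p = 0.037) and with library totals alone (-0.46, adjusted p = 8.5e-05). When the compared groups alone were fitted, *Jun* (-0.15, adjusted p = 0.034) and *Fosb* (0.53, adjusted p = 0.0059) passed. With CpG, 5 of 10 passed, against 19.7%: *Atf3* was higher (0.33 ± 0.07), and *Egr1* (-1.58 ± 0.16), *Fosl2* (-0.48 ± 0.09), *Junb* (-0.29 ± 0.07) and *Batf* (-0.28 ± 0.08) were lower in SjSS. *Egr1* was the gene called, against 2.61% of all genes. *Batf* no longer passed without B6 CpG 2 or SjSS CpG 1 or 2 (-0.26 to -0.19). It was also lost with library totals alone (-0.18) and when the compared groups alone were fitted (-0.27). *Junb* did not pass without SjSS CpG 1 (-0.25) or with library totals alone (-0.20, adjusted p = 0.054). *Batf2* passed without SjSS CpG 3 (-0.53, adjusted p = 0.030), and *Jun* with library totals alone (0.27, adjusted p = 0.021).

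The AC response itself differed between strains for 7 of the 10 genes, against 37.9% of all genes. It was more positive in SjSS for *Batf2*, *Junb*, *Egr1*, *Atf3*, *Batf* and *Fos* and more negative for *Fosl2*. *Batf2* was called, 1 of 10 against 7.53% of all genes. The CpG response differed for *Egr1* among the 10 genes, against 5.85% of all genes. The strain comparisons with ACs and the AC responses use the same AC treated samples, and the fibroblast markers given above differed between the strains in the same samples.

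**Figure D3:**
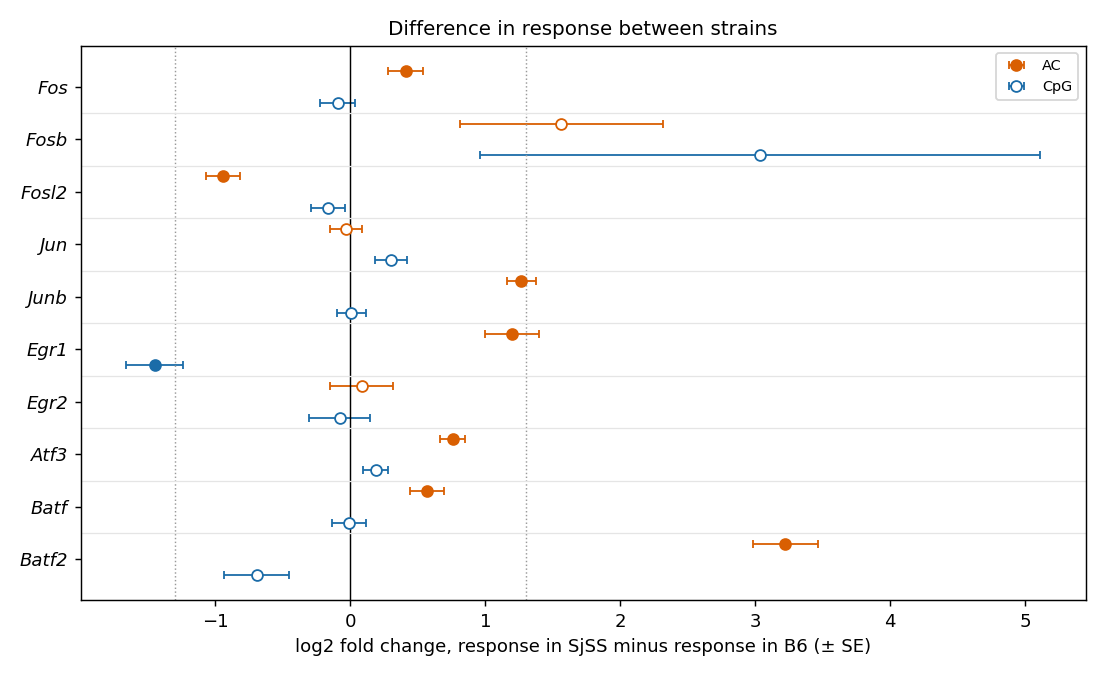
Difference between strains in the response to ACs (orange) and to CpG (blue) for each gene, as SjSS response minus B6 response on the log2 scale (± SE). Filled symbols have an adjusted p under 0.05 and dotted lines mark 1.3 in either direction. For ACs, 6 genes lie to the right of 0 with filled symbols and *Fosl2* to the left, and for CpG the filled symbol is *Egr1* at -1.45.

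ACs and CpG were also set against each other within a strain. By the labels the time from the start of treatment differed, with 2 h and a further 3 h for ACs and 6 h for CpG. The study's methods give a later RNA time after ACs. Its methods and a figure legend can also be read as a wash and further incubation after CpG. How the times of the treatments compare is therefore not settled by the sources used here. In B6, *Fosb* (7.56 ± 1.05), *Atf3* (0.40 ± 0.07) and *Jun* (0.21 ± 0.08) were higher with ACs, and *Batf* (-1.81 ± 0.09), *Egr2* (-0.99 ± 0.16), *Junb* (-0.99 ± 0.07), *Batf2* (-0.92 ± 0.16), *Fos* (-0.30 ± 0.09) and *Fosl2* (-0.23 ± 0.09) were higher with CpG. These were 9 of 10 genes against 46.1% of all genes, with *Fosb* and *Batf* called (7.11% of all genes). The smallest of these differences did not hold throughout. *Jun* no longer passed with DESeq2 (0.18, adjusted p = 0.081), with its size factors, or without B6 CpG 1 or any 1 of the B6 AC samples (0.13 to 0.22, adjusted p = 0.080 to 0.24). *Fosl2* was lost with upper quartile scaling, with library totals alone, with no filter on low counts, and without B6 CpG 1 or 2 or any 1 of the B6 AC samples (-0.26 to -0.12, adjusted p = 0.056 to 0.24). *Fos* was lost with library totals alone (-0.19) and without B6 AC 2 (-0.24). In SjSS, *Fosb* (6.09 ± 0.83), *Batf2* (3.00 ± 0.16), *Egr1* (2.59 ± 0.16), *Atf3* (0.98 ± 0.07) and *Junb* (0.27 ± 0.07) were higher with ACs, although *Junb* was not with library totals alone (-0.01). *Batf* (-1.24 ± 0.09), *Fosl2* (-1.01 ± 0.09) and *Egr2* (-0.83 ± 0.17) were higher with CpG. Here 8 of 10 passed against 52.2% of all genes, and *Fosb*, *Batf2* and *Egr1* were called (9.18% of all genes). *Fos*, at 0.21, did not pass (adjusted p = 0.064, edgeR) but did with DESeq2 (0.23, adjusted p = 0.039) and with its size factors. It also passed with the compared groups alone, with a replicate block within each strain and without SjSS CpG 1 (0.28, adjusted p = 0.026). *Batf* and *Egr2* were lower with ACs than with CpG in both strains, whereas *Batf2* and *Junb* were lower with ACs in B6 and higher with ACs in SjSS.

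Other bZIP genes were examined as a list of 29, of which 28 were tested. With ACs, 10 rose and 5 fell in B6, where 38.3% of all genes passed, and 1 was called higher (4.47% of all genes). In SjSS 15 rose and 8 fell (58.0% of all genes), and 4 were called higher and 3 lower (12.9%). The median log2 fold change of the list was 0.05 and 0.22, beside 0.00 and -0.02 over all genes. In SjSS *Maff* (3.27) and *Mafk* (2.45), small MAF proteins without an activation domain, were called higher with ACs, and *Cebpa* (-2.04), a factor of myeloid identity, was called lower. These 3 were also called in the interaction of strain and AC (2.23, 2.13 and -1.32). *Fosl1*, the Fos-related gene of FRA1, was the gene called in B6 (1.78, adjusted p = 9.1e-06), where it went from 1.41 ± 0.514 to 4.89 ± 0.0749 CPM. In SjSS it rose by 0.58 (adjusted p = 0.048), and its responses differed between the strains (-1.20, adjusted p = 0.0089). With CpG, 12 rose and 7 fell in B6 (57.9% of all genes) and 14 rose and 8 fell in SjSS (54.2%), among them *Cebpd* (2.83 and 2.26) and *Bach2* (-2.31 and -1.95).

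*Crem*, which encodes the cAMP-responsive element modulator, a bZIP factor of the same list, had the pattern most like that of *Fosb* of all tested genes (Pearson's r = 0.98 over the 18 samples, on log2 CPM). Its level was 18.5, 30.9 and 27.8 CPM in control B6, and 6.61, 7.67 and 7.08 CPM with CpG. SjSS BMDMs had 19.0, 20.6 and 11.2 CPM in controls and 10.3, 10.1 and 7.83 CPM with CpG. SjSS control 3, the control lowest in *Fosb*, was also the control lowest in *Crem*. *Crem* fell with CpG by 1.85 on the log2 scale in B6 (adjusted p = 1.2e-07) and by 0.84 in SjSS (adjusted p = 0.0011), and rose with ACs in SjSS by 0.87 (adjusted p = 0.00044).

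**Figure D4:**
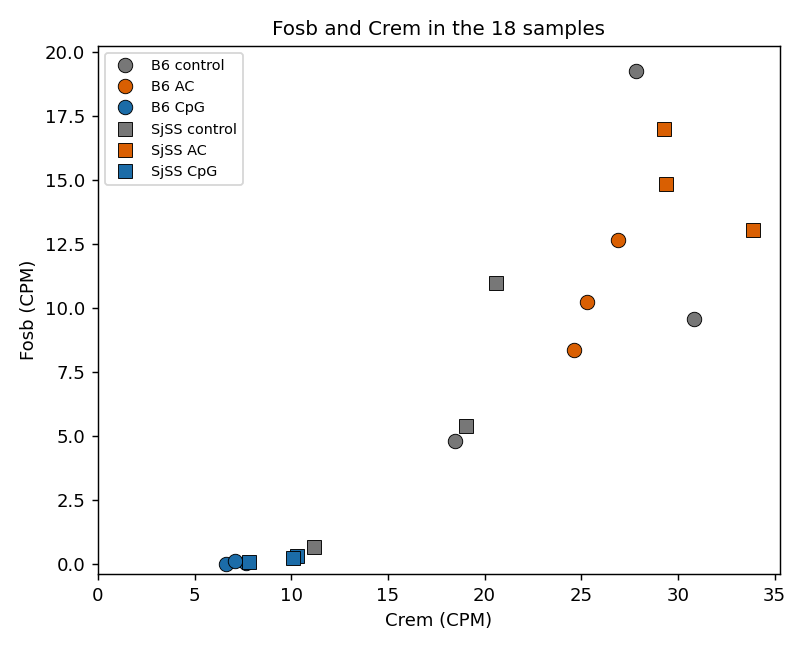
Level of *Fosb* against that of *Crem* in the 18 samples (CPM, linear axes), coloured by treatment, with circles for B6 and squares for SjSS. The 6 CpG treated samples lie at most at 10.3 CPM of *Crem* and 0.315 CPM of *Fosb*, next to SjSS control 3 at 11.2 and 0.671 CPM.

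The genes most like the other members, by the same measure over the 18 samples, which share treatments and strains, were as follows. *Batf2* went with *Ifi47* and *Adar* (r = 0.99 each), *Batf* with *Pirb*, *Anp32a* and *Rac2* (0.99), and *Junb* with *C3*, *Klf6* and *Gas7* (0.98 to 0.99). *Atf3* went with *Brd2*, *Plk2* and *Tspo* (0.97 to 0.98), *Fos* with *Cxcl16*, *Ccl5* and *Gm6542* (0.96) and *Fosl2* with *Heatr1*, *Nfx1* and *Asxl1* (0.95 to 0.96). *Egr1* went with *Sik3* (0.94), *Glmp* (0.91) and *AU040320* (0.89), and *Egr2* with *Mvd* (0.90), *Slc36a4* (0.90) and *Gm28933* (0.88). *Jun* had no close companion, with 0.71 for *9930022D16Rik*, 0.70 for *Nap1l5* and 0.67 for *Tsen15*. Among the members themselves the highest coefficients were 0.92 between *Fos* and *Junb*, 0.89 between *Atf3* and *Batf2* and 0.87 between *Junb* and *Batf*. The lowest were -0.84 between *Fosl2* and *Atf3*, -0.80 between *Fosl2* and *Batf2* and -0.77 between *Fosb* and *Batf*.

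The partners of the BATF factors were measured beside them. *Irf1*, an interferon-induced factor, went from 78.8 ± 9.996 to 1371 ± 84.0 CPM with ACs in SjSS (4.12, adjusted p = 6.8e-16) and from 73.0 ± 3.70 to 128 ± 2.72 CPM in B6 (0.81). With CpG it was at 92.9 ± 13.1 CPM in B6 and 85.3 ± 10.1 CPM in SjSS, and the AC responses differed between strains by 3.31 (adjusted p = 8.2e-12). *Irf4* fell in all 4 responses and was called lower in SjSS with ACs (-1.35) and in both strains with CpG (-1.92 and -1.56), at no more than 1.20 CPM on average in any group. *Irf8* fell in all 4 responses as well, with group means of 178 to 313 CPM, and was not called. *Batf* was thus raised by CpG while both IRFs it is known to pair with were lowered.

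Of the relatives and corepressors of the EGR factors, 3 of 5 genes were tested. *Egr3* fell with CpG in both strains (-2.40 and -3.14) and with ACs in B6 (-1.56, adjusted p = 0.016), from 0.697 ± 0.186 CPM in control B6 and 0.715 ± 0.311 CPM in control SjSS BMDMs. Among other immediate early genes, 27 of 29 were tested. With ACs 16 rose and 2 fell in B6 (38.3% of all genes), with 3 called higher and 2 lower (4.47%). In SjSS 19 rose and 5 fell (58.0%), with 9 called higher and 3 lower (12.9%). The median log2 fold change was 0.54 in B6 and 0.90 in SjSS, beside 0.00 and -0.02 over all genes. *Gem* (2.98 in B6 and 4.87 in SjSS) and *Ptgs2*, the inducible cyclooxygenase (2.41 and 3.88), were called in both strains with ACs. *Dusp2*, a MAP kinase phosphatase, *Csrnp1* and *Nr4a3* were called in SjSS (3.55, 3.47 and 3.11) and had 0.63, 0.64 and 0.71 in B6. All 5 were called in the interaction of strain and AC. CpG raised 14 and lowered 9 genes of the list in B6 (57.9% of all genes) and raised 15 and lowered 9 in SjSS (54.2%). *Nr4a3* fell with CpG (-2.60 and -1.49), as did *Ier5l* (-3.51 and -2.07) and *Dusp6* (-2.06 and -1.83), whereas *Dusp2* (3.70 and 3.28) rose. *Ier5l* and *Dusp6* also fell with ACs in both strains (-1.77 and -2.02, and -1.63 and -2.48).

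Of the MAP kinase and SRF genes that act upstream, 19 of 22 were tested. With ACs 6 rose and 4 fell in B6 (38.3% of all genes) and 8 rose and 4 fell in SjSS (58.0%). With CpG 10 rose and 6 fell in B6 (57.9%) and 10 rose and 5 fell in SjSS (54.2%). The share with ACs in SjSS lay near that of all genes, and the median log2 fold change lay between 0.05 and 0.18, beside -0.04 to 0.00 over all genes. *Mapk11*, the p38 beta kinase, was called higher in all 4 (2.24 and 1.47 with ACs, 2.10 and 1.87 with CpG, in B6 and SjSS). *Map3k8*, the kinase TPL2 that carries Toll-like receptor signals to ERK, rose with CpG in both strains (1.97 and 1.65), and with ACs by 0.40 in B6 and 1.76 in SjSS, a difference of 1.37 (adjusted p = 1.4e-08). *Map3k1* was called lower in SjSS with ACs (-1.44) and *Map2k3* in B6 with CpG (-1.32).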

How the data were processed

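RNA-seq of BMDMs was analysed in 18 samples, 3 in each of 6 groups, grouped by their labels. The authors aligned reads to mm10 with STAR and deposited estimated counts per gene from Partek's E/M tool, not normalized, and 41.1% of these values were not whole. The submitters' processing notes also name DESeq2 (version given as 3.13). Estimated counts split reads of overlapping genes by a model, and strand use is not given in the sources used here. Counts were rounded and analysed in R 4.3.3 with edgeR 4.0.16 (filterByExpr, TMM, quasi-likelihood fit with 6 group means over all 18 samples), with DESeq2 1.42.0 as an alternative. There were 11 comparisons, and standard errors are the log2 fold change divided by the square root of F. Genes were compared by their correlation of log2 CPM (prior count 2). Exon lengths are unions of GENCODE M21 exons, gene positions are those of the deposited table, whose stops lie 1 base past the GENCODE ends, and promoters are RefSeq's on GRCm38.p6. Python 3.11.15, pandas 2.3.3 and matplotlib 3.10.9 made tables and figures. The steps were tested on simulated counts.

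The members, lists and tests were chosen with earlier results of these data known. The text names all 10 members, up to 8 genes of each other list that were called in a response or interaction, by size of change, and the 3 genes most like each member. Some genes that this rule names are not reported here. *Arl2*, *Gm5510*, *Prdx2*, *Junos*, *Gm24748* and markers are named for context. Lists were matched by symbol alone. Alternatives were DESeq2, its size factors, upper quartile scaling, library totals alone, other filters and fold thresholds, a fit restricted to each comparison's samples, a block by replicate number, and each sample left out. A block within each strain was added after seeing the data. Groups had 3 samples, so depth (30688336 to 57139662 counts) limits precision less than replication does, except for *Fosb* after CpG, where a count of 0 allows up to 3 counts.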

Additional observations from a re-analysis of the deposited data

Results flagged for a closer look

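By the test of the interaction and the fold threshold, 1 of the 10 genes differed between the strains in its AC response, against 7.53% of all genes. For the CpG response it was 1 of 10, against 0.614% of all genes. The share for ACs thus lay near that of all genes. For *Batf2*, the AC response in SjSS exceeded that in B6 by 3.22 on the log2 scale (adjusted p = 4.5e-09, edgeR), and all 3 AC treated SjSS samples lay above all other samples. For *Egr1*, the CpG response in SjSS minus that in B6 was -1.45 (adjusted p = 0.00046, edgeR), and all 3 CpG treated SjSS samples lay below all other samples. Groups of 3 samples were too small for the test of single samples that stand apart.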

How the results depend on the processing

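Of 1959 values of members under alternatives, other fold thresholds included, 1870 kept their side of the thresholds, 30 lost and 59 gained a call, and no called value changed direction. Of values past the adjusted p, the AC against CpG difference of *Junb* in SjSS turned with library totals alone. That scaling moved the median of all genes by -0.41 (AC response in SjSS), -0.34 (interaction of strain and AC), -0.30 (strain difference with AC), -0.29 (AC against CpG in SjSS), -0.18 and -0.13 (CpG responses) and 0.11 (AC against CpG in B6), and upper quartile scaling moved the AC response in SjSS by -0.12. Relative to the shift of all genes, the AC response of *Jun* in SjSS stayed small. Library totals alone left 1 gene called higher and 1 lower for ACs in SjSS, 1 higher for CpG in SjSS, 1 lower for strains with AC and 1 lower for AC against CpG in SjSS. With upper quartile scaling the counts were 3 higher for ACs in SjSS, 1 higher for CpG in SjSS and 1 lower for strains with AC. *Junb* also lost its call for CpG in B6 under each of these scalings (1.13 with library totals alone and 1.22 with upper quartile scaling).

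With no fold threshold the counts of higher and lower genes were 5 and 1 for ACs in B6, 7 and 2 for ACs in SjSS, 5 and 1 for CpG in B6, 6 and 2 for CpG in SjSS, 0 and 2 for untreated strains, 6 and 1 for strains with AC, 1 and 4 for strains with CpG, 6 and 1 for the interaction with AC, 3 and 6 for AC against CpG in B6 and 5 and 3 in SjSS. With a log2 fold change over 2 they were 1 higher for ACs in SjSS, 1 higher for CpG in B6, 1 higher and 1 lower for CpG in SjSS, and 0 lower for strains with CpG, the interaction with CpG and AC against CpG in B6. Leaving out 1 sample gave 1 to 2 genes higher for CpG in SjSS, 0 to 1 lower for untreated strains (*Fosb* without SjSS control 2, -1.89), 1 to 3 higher for the interaction with AC (*Junb* or *Fosb*) and 0 to 1 lower for AC against CpG in SjSS (*Batf* without SjSS CpG 2, -1.32). *Fosb* had no value for strains with CpG when the compared groups alone were fitted, since it then failed the filter.

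Samples share numbers across groups, but the labels do not say that a number marks a mouse. Same-strain samples of the same number had correlated deviations of 0.02 to 0.26 (median 0.09, 9 of 18 pairs over 0.1), and 17 of 18 samples were most alike with their own number within the strain. The replicate block changed no count of called genes (5 higher for ACs in SjSS, 3 higher and 1 lower for CpG in B6). A replicate block within each strain gave 2 genes called higher for the interaction with AC, with *Fosb* added (1.69, adjusted p = 0.043), and strain differences cannot be estimated under it.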
